A study of Mus musculus with 6 samples.

Results

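The 8 genes described here, Sesn1, Sesn2, Sesn3, Ddit4, Ddit4l, Depdc5, Castor1 and Deptor, encode proteins that hold back the growth kinase complex mTORC1. They were chosen by name from the 54532 genes of the table, and all 8 were found once and were expressed at a level that could be tested. Ovarian granulosa cells (GCs), the somatic cells that surround the oocyte in the follicle, were profiled by RNA-seq 6 h after female ICR mice were injected i.p. with PBS or with 120 mg/kg cyclophosphamide (CTX), an alkylating chemotherapy drug. The mice were 3 weeks old, of no genetic modification named in the labels, and both groups had received 5 IU of PMSG, a gonadotropin that drives follicle growth, 22 h before the injection. Each group had 3 samples, and the GCs of 3 mice were pooled in each, so the error between samples is that between pools. In such bulk samples, fewer cells of a type and less RNA per cell cannot be told apart.

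mTORC1 sits on the lysosome and promotes protein synthesis and cell growth when amino acids and growth factors are plentiful. Amino acids act through the Rag GTPases, which the GATOR1 complex switches off and the GATOR2 complex protects from GATOR1, whereas growth factors and energy act through the TSC complex and the GTPase Rheb. The sestrins bind GATOR2, and SESN2 is released from it by leucine. CASTOR1 is the arginine sensor of the same complex, DEPDC5 is a subunit of GATOR1, REDD1 (the product of Ddit4) and REDD2 (Ddit4l) act through TSC, and DEPTOR binds mTOR itself. Sesn1 and Sesn2 are known targets of p53, Sesn2 and Ddit4 of the stress factor ATF4, Ddit4 of hypoxia and glucocorticoids, and Sesn3 of FOXO factors.

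The sequence before the annotated start is shown for Sesn2, the member whose mRNA rose after CTX, and, beside it, for 2 members with stress-regulated promoters whose mRNA did not pass the test, Sesn1 and Ddit4. The sequences are from RefSeq on GRCm38.p6 and read 5′ to 3′ on the strand of the gene. Each is taken from the 250 bases before a RefSeq start, without the bases that GENCODE places in an exon (45 for Sesn2 and 64 for Ddit4). They lie at chr4:132510502-132510706 (minus strand) for Sesn2, at chr10:41887189-41887438 (plus strand) for the second of 2 start sites of Sesn1, and at chr10:59951835-59952020 (minus strand) for Ddit4. All 250 bases before the first Sesn1 start lie in an annotated exon and are not printed. Capitals mark the motif matches found on either strand.
Sesn2: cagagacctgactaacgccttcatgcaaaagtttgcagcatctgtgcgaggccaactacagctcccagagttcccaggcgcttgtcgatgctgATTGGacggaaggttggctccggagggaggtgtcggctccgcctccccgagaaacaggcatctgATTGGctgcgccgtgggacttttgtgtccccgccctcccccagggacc
Sesn1, second start: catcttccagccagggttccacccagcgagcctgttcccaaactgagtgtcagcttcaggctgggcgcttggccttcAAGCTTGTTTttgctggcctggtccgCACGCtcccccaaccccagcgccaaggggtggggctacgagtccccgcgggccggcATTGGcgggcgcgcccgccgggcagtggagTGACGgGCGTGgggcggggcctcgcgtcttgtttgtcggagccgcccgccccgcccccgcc
Ddit4: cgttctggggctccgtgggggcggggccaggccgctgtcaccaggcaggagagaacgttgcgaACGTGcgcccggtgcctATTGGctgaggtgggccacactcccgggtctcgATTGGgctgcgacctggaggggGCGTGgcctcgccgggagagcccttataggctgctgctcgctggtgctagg

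The motifs searched in the 250 bases before each start were the CCAAT box (CCAAT, found in 33.8% of the 32851 mouse promoters of the same length), the ATF4 core (TGATGNAA, 3.45%), the CRE half-site (TGACG, 17.8%), the hypoxia response cores ACGTG (16.6%) and GCGTG (28.2%), a FOXO site (TGTTTAC, 3.17%) and the p53 consensus decamer (7.13%). Both strands were read for each. The region before Sesn2 held 2 CCAAT boxes, which began 157 and 93 bases before the start and read as ATTGG on the strand shown, and no match to the other motifs. The first start of Sesn1 had 1 CCAAT box. Its second start had 1 CCAAT box, 1 CRE half-site, 2 GCGTG cores and 1 p53 decamer, which began 173 bases before the start. The region before Ddit4 held 2 CCAAT boxes, 1 ACGTG and 1 GCGTG core. Of the members not printed, Sesn3 had 4 CCAAT boxes, Castor1 had 4 GCGTG cores and 1 ACGTG core, Depdc5 had 1 GCGTG core, and Ddit4l had 1 GCGTG core and 1 p53 decamer that began 90 bases before its start. A match is a description of the letters in these windows and says nothing of binding, and sites further away or inside the gene were not searched. RefSeq promoters were matched for 7 of the 8 genes, with 8 start sites.

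The samples were sequenced to similar depth. The reads behind the FPKM values (a level corrected for both sequencing depth and the length of the gene) could be rebuilt, and came to between 16005869 and 17790353 per PBS sample and between 17727770 and 18455011 per CTX sample. The members had from 73 reads (Castor1) to 2504 reads (Ddit4) in a sample. One sample stood apart: on the first principal component, with 46.8% of the variance, CTX replicate 2 lay at 74.7 and the other samples lay between -26.6 and 13.2. CTX replicate 2 was the highest CTX sample for 4 members and the lowest for the other 4, as it was at one end of its group for 78.8% of all genes tested, so values without it are given below. The granulosa markers were present, with 12 of 12 tested and a summed level of 13390 to 14690 FPKM in PBS samples. The same sum was 12370, 11540 and 11560 FPKM in CTX replicates 1, 2 and 3. Most of it was Inha, at 8556 to 10400 FPKM in all samples, while other markers stood apart in CTX replicate 2. There Cyp19a1, the aromatase gene, was at 6.61 FPKM (59.2 to 62.4 in PBS), Inhba at 211 FPKM (754 to 902 in PBS), and Amh at 179 FPKM (48.4 to 51.0 in PBS).

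One of the 8 genes, Sesn2, was higher after CTX, and none was lower. Sesn2 mRNA rose 4.25-fold, whereas the log2 fold changes of the other 7 genes lay between -0.49 and 0.33 and did not pass the test. Genes were called where the adjusted p was under 0.05 and the fold change over 2, in limma on log2(FPKM + 0.1) with Benjamini-Hochberg adjustment over the 14463 genes with a mean of at least 0.5 FPKM. Of all these genes, 0.802% were called higher and 0.159% lower (0.961% together). Without the fold threshold the counts for the 8 genes were the same, beside 1.4% higher and 0.36% lower among all genes (1.76% together). At an unadjusted p below 0.05 in the same limma fit there were 3 of the 8 genes, Sesn2, Deptor and Ddit4l, beside 19.6% of all genes tested, and voom on the rebuilt reads also called 1 gene higher and 0 lower. The median log2 fold change was 0.05 for the 8 genes and -0.01 for all genes tested.

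**Figure D1:**
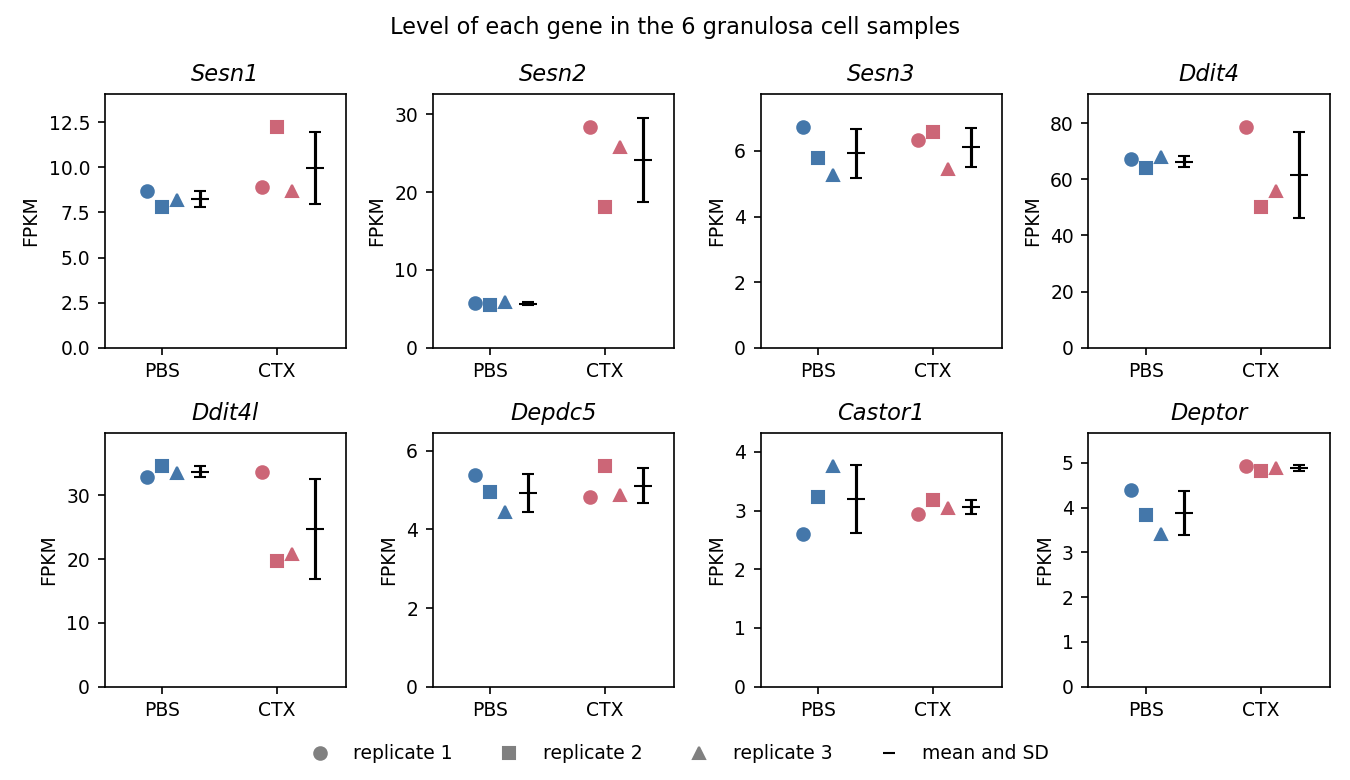
FPKM (y axis, linear and from 0, with its own scale in each panel) of the 8 genes in 3 PBS and 3 CTX samples, where each point is a pool of 3 mice, the shape gives the replicate number, and the bar gives the mean and SD of the group. The CTX samples of Sesn2 lie between 18.1 and 28.4 FPKM and all PBS samples lie between 5.48 and 5.83 FPKM, while the groups overlap for Sesn3, Ddit4, Ddit4l, Depdc5 and Castor1.

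Sesn2 (ENSMUSG00000028893) encodes a stress-inducible leucine sensor. The gene lies at chr4:132492032-132510501 on the minus strand and has 1 annotated transcript of 10 exons. Its level was 5.72, 5.48 and 5.83 FPKM in PBS replicates 1, 2 and 3, and 28.4, 18.1 and 25.8 FPKM in CTX replicates 1, 2 and 3. All CTX samples lay far above all PBS samples, and CTX replicate 2 was the lowest of the 3. The mean rose from 5.67 ± 0.179 to 24.1 ± 5.37 FPKM (SD, n = 3 per group), on 328 to 354 reads per PBS sample and 1116 to 1790 reads per CTX sample. The log2 fold change was 2.04 (SE 0.17, 95% interval 1.64 to 2.45, adjusted p = 0.00399 by limma). Without CTX replicate 2 it was 2.24 (SE 0.08, adjusted p = 1.5e-04 by limma). Sesn2 was called in all 17 alternative fits, with log2 fold changes between 1.89 and 2.24.

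By size of change, Sesn2 was in place 36 among the 116 genes called higher. The 3 genes whose pattern over the 6 samples was most like that of Sesn2 were Ccng1 (distance 0.208), Dglucy (0.268) and Mab21l3 (0.289). The measure was the Euclidean distance between centred log2(FPKM + 0.1) values, with a median of 2.60 over all genes tested. An unchanged gene lies far from Sesn2 by this measure, so the median mostly restates the Sesn2 rise and is no yardstick of likeness. The 3 genes had log2 fold changes of 2.18, 2.20 and 2.17, near that of Sesn2. Ccng1 encodes cyclin G1, a known p53 target. It was at 19.1, 18.6 and 18.5 FPKM in PBS replicates and at 98.5, 68.9 and 91.4 FPKM in CTX replicates 1, 2 and 3. That CTX replicate 2 was the lowest is no separate observation, since Ccng1 was picked for likeness over these samples. Dglucy, which encodes the mitochondrial enzyme D-glutamate cyclase, went from 3.84 to 4.08 FPKM in PBS samples to 20.7, 15.8 and 19.9 FPKM in CTX samples. Mab21l3 was at 0.222 to 0.280 FPKM in PBS samples and at 1.91, 1.09 and 1.64 FPKM in CTX samples, and was called in 10 of 16 alternatives.

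Sesn1 (ENSMUSG00000038332, chr10:41809935-41908424, plus strand) encodes the sestrin also known as PA26, a p53 target. Its level was 8.68, 7.81 and 8.20 FPKM in PBS replicates and 8.94, 12.3 and 8.69 FPKM in CTX replicates 1, 2 and 3. The groups did not overlap, but the highest PBS sample and the lowest CTX sample, at 8.68 and 8.69 FPKM, were nearly level, and CTX replicate 2 stood above the rest. The log2 fold change was 0.26 (SE 0.14, 95% interval -0.09 to 0.60, adjusted p = 0.358 by limma), and 0.10 without CTX replicate 2 (adjusted p = 0.523 by limma). Sesn3 (ENSMUSG00000032009, chr9:14275067-14333101, plus strand), the sestrin under FOXO control, was at 6.74, 5.78 and 5.26 FPKM in PBS replicates and 6.32, 6.57 and 5.44 FPKM in CTX replicates. The groups overlapped, with a log2 fold change of 0.05 (SE 0.12, 95% interval -0.25 to 0.34, adjusted p = 0.849 by limma), and -0.007 without CTX replicate 2 (adjusted p = 0.982 by limma). The intervals of Sesn1 and Sesn3 both lie inside a 2-fold change in either direction. The exons of the sestrin genes shared 0 stretches of 31 bases with each other.

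**Figure D2:**
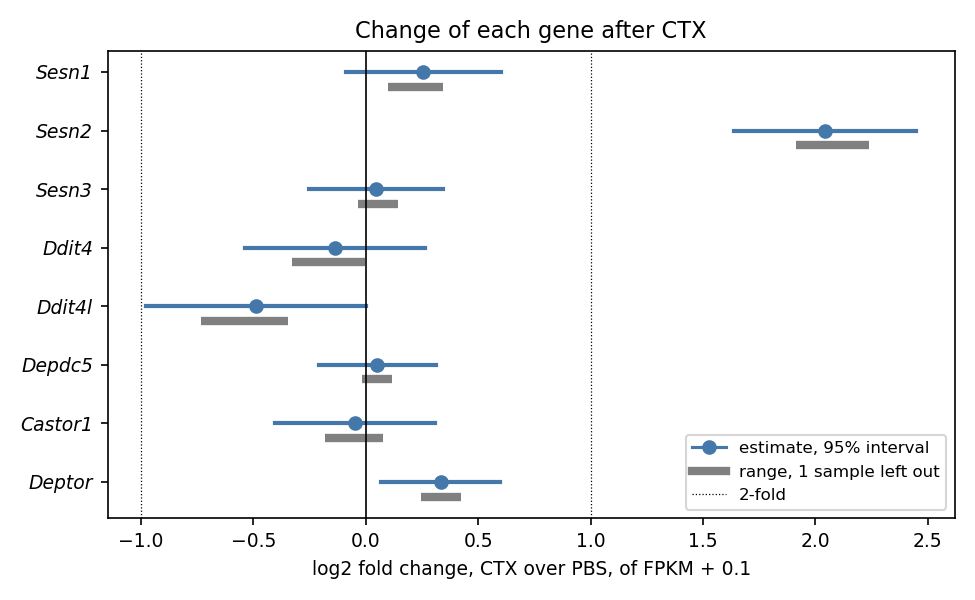
Log2 fold change of CTX over PBS on the log2(FPKM + 0.1) scale (x axis) for the 8 genes, with the limma estimate and its 95% interval (blue) and the range of the estimates when each of the 6 samples is left out in turn (grey). Sesn2 at 2.04 is the only gene to the right of the dotted 2-fold line, and the interval of Ddit4l reaches from -0.98 to -0.0004.

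Sesn2 rose and the other sestrins did not pass the test, and the make-up of sestrin mRNA in each sample is given here. The sum, the shares and the ratio of Sesn2 to Sesn1 largely restate the Sesn2 rise and are no separate result. FPKM corrects for length, so levels can be added over genes. The summed level of Sesn1, Sesn2 and Sesn3 was 21.1, 19.1 and 19.3 FPKM in PBS replicates and 43.7, 36.9 and 39.9 FPKM in CTX replicates, a rise of the mean from 19.8 ± 1.14 to 40.2 ± 3.38 FPKM (SD, n = 3). Sesn2 made up 27.0%, 28.7% and 30.2% of that sum in PBS samples and 65.1%, 49.0% and 64.6% in CTX samples, a difference of 30.9 percentage points, or 36.2 without CTX replicate 2. In PBS samples Sesn1 was the largest share of the summed FPKM, at 41.5% ± 0.878 (SD, n = 3), and after CTX it was 25.1% ± 7.01. Sesn3 went from 29.8% ± 2.36 to 15.3% ± 2.21. These shares add up to the whole, so a larger Sesn2 share leaves smaller shares for the other 2 genes, whose own levels were not called lower. The order of the shares depends on the correction for length. By rebuilt reads, without it, Sesn3 was the largest in PBS samples, at 1300 to 1834 reads against 529 to 616 for Sesn1. In CTX samples Sesn2 had 1116 to 1790 reads and Sesn3 had 1488 to 1780.

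A ratio within a sample does not depend on the scaling between samples. The log2 ratio of Sesn2 to Sesn1 was -0.60, -0.51 and -0.49 in PBS samples and 1.67, 0.56 and 1.57 in CTX samples. The sign of the ratio differed between the groups in every sample, and the mean was -0.54 in PBS and 1.27 in CTX samples. The summed level, the 3 shares and this ratio each gave p = 0.1 in the two-sided exact permutation test over samples (0.117 after Benjamini-Hochberg adjustment over 7 tests), which is the smallest p that 3 against 3 samples allow. The log2 ratio of Sesn3 to Sesn1 differed by -0.21 (exact permutation p = 0.2, adjusted 0.2).

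**Figure D3:**
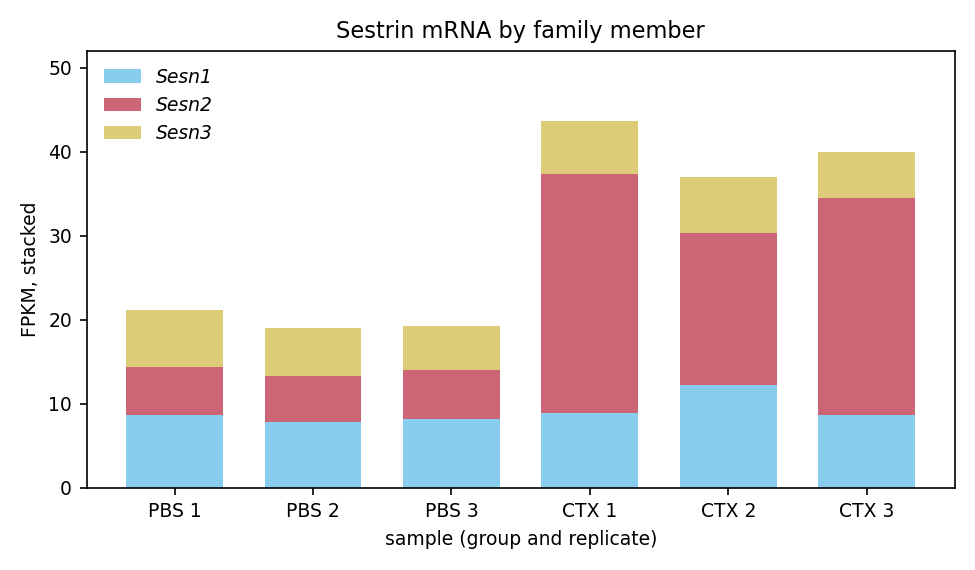
Stacked FPKM of Sesn1, Sesn2 and Sesn3 (y axis, from 0) in each of the 6 samples (x axis). The Sesn2 segment is 5.48 to 5.83 FPKM in PBS samples and 18.1 to 28.4 FPKM in CTX samples, and the whole bar goes from 19.1 to 21.1 FPKM up to 36.9 to 43.7 FPKM.

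Ddit4 and Ddit4l, the genes of REDD1 and REDD2, were the most abundant of the 8 genes per length. Ddit4 (ENSMUSG00000020108, chr10:59949669-59951834, minus strand) was at 67.0, 64.0 and 67.9 FPKM in PBS replicates and at 78.7, 50.0 and 55.7 FPKM in CTX replicates 1, 2 and 3. The CTX samples lay on both sides of the PBS samples. The mean was 66.3 ± 2.02 FPKM in PBS and 61.5 ± 15.2 FPKM in CTX samples (SD, n = 3), with a log2 fold change of -0.14 (SE 0.17, 95% interval -0.54 to 0.27, adjusted p = 0.662 by limma). With sample weights (arrayWeights) the adjusted limma p was 0.0397 at a log2 fold change of -0.23, and without CTX replicate 2 the log2 fold change was -0.002.

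Ddit4l (ENSMUSG00000046818, chr3:137621612-137628333, plus strand) was at 32.9, 34.7 and 33.5 FPKM in PBS replicates and at 33.7, 19.6 and 20.9 FPKM in CTX replicates 1, 2 and 3. CTX replicate 1 lay among the PBS samples, and the other 2 CTX samples lay well below them. The mean was 33.7 ± 0.880 and 24.7 ± 7.78 FPKM (SD, n = 3), with a log2 fold change of -0.49 (SE 0.20, 95% interval -0.98 to -0.0004), an unadjusted p of 0.0499 and an adjusted p of 0.254 by limma. Whether Ddit4l passed the test hung on the weight of single samples. Without CTX replicate 1 the log2 fold change was -0.73 (adjusted p = 0.0099 by limma), with sample weights it was -0.68 (adjusted p = 0.0024 by limma), and without CTX replicate 2 it was -0.34 (adjusted p = 0.371 by limma).

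Among the CTX samples, both genes were highest in replicate 1 and lowest in replicate 2. Their log2 ratio, Ddit4 to Ddit4l, was 1.03, 0.89 and 1.02 in PBS samples and 1.22, 1.35 and 1.42 in CTX samples. The groups did not overlap, and the means differed by 0.35, at the smallest exact permutation p of 0.1 (0.117 adjusted). The spread between CTX samples was wider than between PBS samples for both genes and for Sesn2. On the log2 scale the SD was 0.0442 and 0.341 for Ddit4 in PBS and CTX, 0.0374 and 0.425 for Ddit4l, and 0.0448 and 0.341 for Sesn2, beside medians of 0.104 and 0.18 over all genes tested. Sesn1 was also more variable in CTX samples, and the other 4 genes were less variable there, down to an SD of 0.017 in CTX against 0.179 in PBS for Deptor.

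Depdc5, Castor1 and Deptor, whose products belong to GATOR1, bind GATOR2 and bind mTOR, had the lowest levels of the 8 genes in both groups. Depdc5 (ENSMUSG00000037426, chr5:32863701-32994236, plus strand) was at 5.39, 4.94 and 4.44 FPKM in PBS and at 4.83, 5.62 and 4.87 FPKM in CTX replicates, with a log2 fold change of 0.05 (SE 0.11, 95% interval -0.21 to 0.31, adjusted p = 0.805 by limma). Castor1 (ENSMUSG00000020424, chr11:4218225-4222409, plus strand) was at 2.60, 3.22 and 3.77 FPKM in PBS and at 2.94, 3.19 and 3.05 FPKM in CTX replicates, with a log2 fold change of -0.05 (SE 0.15, 95% interval -0.40 to 0.31, adjusted p = 0.878 by limma). The groups overlapped for both genes, and Castor1 rested on 73 to 96 reads per sample. Without CTX replicate 2 the log2 fold change was -0.02 for Depdc5 (adjusted p = 0.949 by limma) and -0.07 for Castor1 (adjusted p = 0.837 by limma).

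Deptor (ENSMUSG00000022419, chr15:55112317-55259271, plus strand) was at 4.39, 3.84 and 3.40 FPKM in PBS replicates and at 4.94, 4.82 and 4.89 FPKM in CTX replicates. All CTX samples were above all PBS samples. The log2 fold change of 0.33 (SE 0.11, 95% interval 0.07 to 0.60) had an unadjusted p of 0.0215 and an adjusted p of 0.188 by limma, and it was 0.34 without CTX replicate 2 (adjusted p = 0.203 by limma). With sample weights the adjusted limma p was 0.0121, at 0.32. Deptor was thus one of 3 members, with Sesn1 and Sesn2, whose CTX samples all lay above the PBS samples, and no member lay below without overlap. Among all genes tested, 15% lay above and 14.1% below without overlap (29.2% together). The exons of Deptor share 303 bases with the opposite-strand gene Gm9920, which was at 0.0942 FPKM or less in every sample.

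The order of the levels differed between the groups at Sesn2. In PBS samples the order of mean FPKM was Ddit4, Ddit4l, Sesn1, Sesn3, Sesn2, Depdc5, Deptor and Castor1. The ranges of Sesn3 and Sesn2 overlapped there, as did those of Deptor and Castor1, while the other neighbours did not overlap. In CTX samples Sesn2 moved to place 3, behind Ddit4l and ahead of Sesn1, and the others kept their order. The range of Sesn2, 18.1 to 28.4 FPKM, then overlapped that of Ddit4l, 19.6 to 33.7 FPKM. The ranges of Sesn3 and Depdc5 and of Depdc5 and Deptor also overlapped in CTX samples.

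Beyond the 8 genes, the rest of the mTORC1 pathway was read from 6 lists with 63 tested genes, covering the mTOR complexes, GATOR1 and KICSTOR, GATOR2 and amino acid sensors, the Rag GTPases and Ragulator, TSC with Rheb and AMPK, and substrates and outputs of mTORC1. One gene was called higher and 0 lower, beside 0.802% and 0.159% of all genes tested, at a median log2 fold change of 0.01 (-0.01 over all genes). At any fold the limma counts were the same, beside 1.4% and 0.36% of all genes tested. The gene called was Lpin1, which encodes the phosphatidate phosphatase lipin 1, a protein that mTORC1 phosphorylates. It was at 0.946, 0.954 and 0.773 FPKM in PBS replicates and at 2.87, 2.37 and 2.65 FPKM in CTX replicates, a log2 fold change of 1.46 (SE 0.15, adjusted p = 0.00914 by limma). Lpin1 is also a known target of p53 and of glucocorticoids, and it was called in 10 of 16 alternatives.

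In the other 5 lists no gene was called. Genes with the lowest p in their list were lower in the CTX mean without passing the test. Mlst8, a subunit of both mTOR complexes, was at 7.92 to 8.40 FPKM in PBS and 6.00 to 6.78 FPKM in CTX samples (log2 fold change -0.36, adjusted p = 0.0905 by limma). Wdr24 of GATOR2 had a log2 fold change of -0.32 (adjusted p = 0.138 by limma). Prkag2, a regulatory subunit of AMPK, was at -0.27 (adjusted p = 0.179 by limma), and Lamtor2 of Ragulator at -0.20 (adjusted p = 0.3 by limma). The groups did not overlap for Mlst8, Wdr24 and Prkag2, and they overlapped for Lamtor2. With arrayWeights, Mlst8, Wdr24 and Prkag2 passed at any fold, at log2 fold changes of -0.28, -0.26 and -0.40 (adjusted p = 0.00472, 0.0132 and 0.00223 by limma). Over the 63 genes, 5 lay above and 8 below without overlap, shares no larger than the 15% and 14.1% over all genes.

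**Figure D4:**
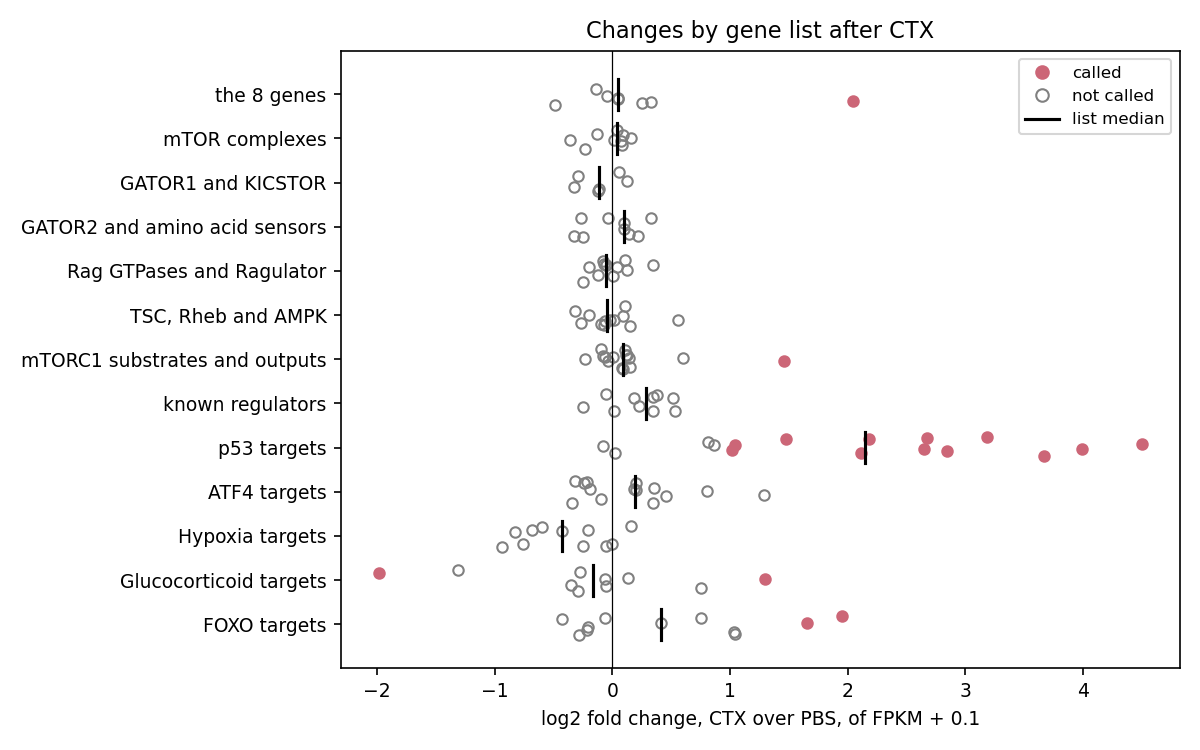
Log2 fold change of CTX over PBS (x axis) of every tested gene in the 8 genes and 12 lists (rows), with called genes filled and the list median as a bar; the vertical jitter has no meaning. The 6 mTORC1 lists hold 1 called gene (Lpin1, 1.46), and the p53 targets hold 12 called genes between 1.02 and 4.50.

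The known regulators of these genes were also read. Of 10 regulators, none was called at more than 2-fold, beside 0.961% of all genes tested. Their median log2 fold change was 0.29. Without overlap, 6 lay above PBS (Trp53, Atf4, Foxo3, Epas1, Nr3c1 and Nfe2l2) and 1 below (Hif1a). Among all genes tested, 15% lay above and 14.1% below. Atf4, the gene of the amino acid stress factor, rose from 99.5, 103 and 113 FPKM to 150, 144 and 163 FPKM at any fold (log2 fold change 0.53, SE 0.08, adjusted p = 0.0349 by limma), a call made in 9 of 17 alternatives. Trp53, the gene of p53, was at 29.9, 30.5 and 29.8 FPKM in PBS and at 33.7, 48.6 and 36.5 FPKM in CTX samples (log2 fold change 0.38, adjusted p = 0.217 by limma). p53 is controlled mainly at the protein level, which was not measured in these data.

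Of 16 other p53 targets tested, 12 were called higher and 0 lower, beside 0.802% and 0.159% of all genes tested, at a median log2 fold change of 2.15. The 12 were Cdkn1a, Ccng1, Bbc3, Zmat3, Phlda3, Trp53inp1, Gdf15, Btg2, Pmaip1, Eda2r, Plk2 and Aen, of which 9 had a larger log2 fold change than Sesn2. The calls of Trp53inp1 and Aen, with log2 fold changes of 1.02 and 1.05, were made in 8 and 12 of 17 alternatives. Trp53inp1 was not called when PBS replicate 1, 2 or 3 or CTX replicate 1 or 3 was left out alone, nor was Aen without PBS replicate 3 or CTX replicate 1. The list was chosen with results of these data known, so its count is not independent evidence. Cdkn1a, the cell cycle inhibitor p21, was at 8.86 to 9.43 FPKM in PBS samples and at 66.4, 42.7 and 66.8 FPKM in CTX samples, lowest in CTX replicate 2 like Sesn2. Of the 12 called, Gdf15 and Plk2 were not lowest there. In CTX replicates 1, 2 and 3, Gdf15 was at 11.5, 22.6 and 18.8 FPKM and Plk2 at 12.1, 13.6 and 14.7 FPKM. Phlda3, an inhibitor of AKT, had a log2 fold change of 3.67 (SE 0.13, adjusted p = 4.5e-04 by limma), and Gdf15, a stress-induced cytokine, one of 4.50 (SE 0.26, adjusted p = 0.00119 by limma).

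For the next 2 lists, the shares called over all genes tested were 0.961% at more than 2-fold and 1.76% at any fold. Among 14 tested ATF4 targets none was called at more than 2-fold, at a median log2 fold change of 0.19. Without overlap, 4 of the 14 lay above PBS and 1 below, beside 15% and 14.1% of all genes. Ddit3, which encodes the transcription factor CHOP, rose at any fold from 7.32 to 8.55 FPKM in PBS to 12.8 to 16.4 FPKM in CTX samples (log2 fold change 0.81, SE 0.12, adjusted p = 0.0310 by limma), and passed in 9 of 17 alternatives. The hypoxia targets, the list to which Ddit4 also belongs by its known regulation, had a median of -0.42 over 11 tested genes with none called at more than 2-fold, and 6 lay below PBS without overlap (14.1% of all genes did). Ldha, lactate dehydrogenase A, fell at any fold from 307 to 344 FPKM in PBS to 191 to 216 FPKM in CTX samples (log2 fold change -0.68, SE 0.08, adjusted p = 0.0192 by limma).

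For the 2 lists that follow, the shares called over all genes tested were 0.802% higher and 0.159% lower. Of 10 glucocorticoid targets, Klf9 was called higher (log2 fold change 1.30, SE 0.09, adjusted p = 0.00248 by limma) and held in all 17 alternatives. The metallothionein gene Mt2 was called lower (-1.98, SE 0.32, adjusted p = 0.0420 by limma), from 1.26 to 1.67 FPKM down to 0.190 to 0.469 FPKM, and this call held in 6 of 16 alternatives. Of 11 FOXO targets, Irs2, an adaptor of the insulin receptor, and Pdk4, a kinase that restrains pyruvate dehydrogenase, were called higher, at log2 fold changes of 1.96 (SE 0.26, adjusted p = 0.0224 by limma) and 1.66 (SE 0.21, adjusted p = 0.0211 by limma). Both were highest in CTX replicate 2, at 20.3 FPKM for Irs2 and 23.6 FPKM for Pdk4. Lpin1, Mt2, Irs2, Pdk4 and Mab21l3, and at any fold Atf4, Ddit3 and Ldha, each lost the call when PBS replicate 1, 2 or 3 or CTX replicate 3 was left out alone, and Atf4 and Mab21l3 also without CTX replicate 1. Without CTX replicate 2, 16 genes of all 12 lists were called higher and 1 lower, the same counts as with it.

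Markers of other cell types varied between samples, and no marker gene of any list was called. The summed leukocyte markers, 5 of 10 tested, were at 18.1 to 20.1 FPKM in PBS samples and at 30.2, 58.4 and 21.0 FPKM in CTX replicates 1, 2 and 3. They were thus highest in CTX replicate 2, the CTX sample with the lowest Sesn2 level. In CTX replicate 3 they were close to the PBS range, and Sesn2 was at 25.8 FPKM there. Most of the leukocyte sum was 1 gene, Lyz2, at 13.1 to 14.3 FPKM in PBS samples and at 22.9, 45.8 and 14.7 FPKM in CTX replicates 1, 2 and 3. Cd68 and Laptm5 were also highest in CTX replicate 2, at 8.97 and 1.35 FPKM (2.59 to 3.69 and 0.652 to 0.821 in PBS samples). The other tested leukocyte markers, Csf1r and Cd52, were not highest there. Of the 5 tested, 4 had a log2 fold change above 0. The pan-leukocyte gene Ptprc, too low to be tested, was at 0.0983 FPKM or less in every sample. Summed erythroid markers were at 319 to 454 FPKM in PBS samples and at 359, 138 and 497 FPKM in CTX samples, theca markers at 43.2 to 47.0 and at 46.3, 26.7 and 29.7 FPKM, oocyte markers at 43.1 to 93.4 and at 62.5, 113 and 106 FPKM, and endothelial markers at 5.96 to 6.44 and at 4.95, 2.58 and 5.40 FPKM. The theca sum followed Cyp17a1, at 30.8 to 34.4 FPKM in PBS samples and at 29.6, 1.25 and 12.5 FPKM in CTX samples, whereas 3 of the 4 tested theca markers had a log2 fold change above 0, with Aldh1a1 at 7.57 to 8.73 and at 11.9, 17.8 and 11.7 FPKM. The largest part of the endothelial sum was Cdh5, at 3.66 to 4.49 FPKM in PBS samples and at 2.99, 1.25 and 3.11 FPKM in CTX samples. Of the 8 endothelial markers, 6 were too low to be tested. The means of Pecam1, Tek, Tie1 and Emcn were higher in CTX than in PBS samples, and those of Kdr, Flt1 and Cldn5 were lower. Of the 12 granulosa markers, 7 lay below PBS without overlap, beside 14.1% of all genes. The part of these markers in the values of the 8 genes was not tested.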

How the data were processed

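RNA-seq was measured in 3 PBS and 3 CTX samples, grouped by their labels. Per the submitters' processing notes, CASAVA 1.8, fastp, HISAT2 2.0.5, featureCounts 1.5.0-p3 and DESeq2 1.20.0 were used with mm10. The library kit was NEBNext Ultra RNA, and strand counting is not given in the sources used here. The authors deposited FPKM values per gene. Their columns of group means, log2 fold change, p-value and adjusted p-value were not used, and 0 per-sample columns were left out. Multiplied by gene length, 100% of values were whole reads within 0.05 reads, which gave the depth.

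log2(FPKM + 0.1) was compared with limma 3.58.1 (lmFit, eBayes with trend, R 4.3.3) and Benjamini-Hochberg adjustment for genes with a mean of at least 0.5 FPKM, and the code was tested on simulated data. Fold changes on this scale understate those of low genes. Sums and ratios were compared by exact permutation in Python 3.11.15 with NumPy 2.4.6. Gene models of GENCODE M21 matched the positions and exonic lengths of all 8 genes.

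The members and lists were chosen with earlier results of these data known. All 8 genes, each called gene of a list, the gene of the lowest p where a list had none, and the 3 genes most like Sesn2 were named, except 1 gene that is not reported here. Atf4, Ddit3, Ldha, Trp53, Ptprc, Cd68, Laptm5 and Cdh5 were chosen in part after their values were seen. Alternatives changed the pseudocount, filter, scaling, block, weights, variance trend, count model or samples. The fit without CTX replicate 2 as a sample that stands apart was chosen after seeing the data.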

Additional observations from a re-analysis of the deposited data

How the results depend on the processing

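Sesn2 kept its direction and call in all 17 alternatives, and the count of 8 genes changed by more than 2-fold stayed at 1 higher and 0 lower. At any fold, arrayWeights gave 2 higher and 2 lower of the 8, and leaving out single samples gave 0 to 1 lower, the latter without CTX replicate 1. For the genes of the 12 lists, 1 of which was called lower, the count lower was 0 with pseudocount 1, pseudocount 0.01, no filter, a mean FPKM of at least 5, quantile normalization, the replicate block and voom, 2 with arrayWeights, and 0 to 2 with single samples left out. Apart from the stricter filter, which removed Mt2, the cause was not tested. Mt2, the gene called lower, rested on 2 to 18 reads in a sample. Its log2 fold change lay between -2.47 and -0.92 over the alternatives, so it did not always exceed 2-fold. The direction turned for 3 genes, none of them called. Sesn3 was at -0.027 with equal total FPKM, -0.12 with arrayWeights and -0.035 to 0.14 with single samples left out. Depdc5 was at -0.021, -0.028 and -0.019 to 0.12 in the same order. Castor1 was at -0.18 to 0.076 with single samples left out. Equal total FPKM moved the median of all genes to -0.08. In rebuilt reads, which are not corrected for length, the sestrin sum was 1388 reads higher, and the Sesn1 and Sesn3 shares changed by -4.61 and -20.1 percentage points.

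Same-numbered samples held different mice, and their deviations correlated at 0.029 (different numbers -0.014). The labels give no pairing beyond the number, and so few samples cannot exclude a shared handling step. With the replicate block, Sesn2 stayed at 2.04 (adjusted p = 0.0345 by limma), while 10 list genes were called higher (16 without the block). Castor1 and Deptor could not be tested at a mean FPKM of at least 5. With 3 samples per group, small changes were not detectable, as the intervals show, and permutation cannot reach 0.05.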
